A study of Danio rerio with 12 samples.

Results

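Myosin heavy chain genes of zebrafish white muscle are described here in all 12 libraries of the study. Members were chosen by name, namely the fast chains myhc4, myhb, myhz1.1, myhz1.2, myhz1.3 and myhz2, the slow chains smyhc1, smyhc2 and smyhc3, and the ventricular chain vmhc. By gene name 9 of these 10 genes were found among the 31962 genes listed, and smyhc3, which was not found under that name, was not analysed here. The 9 genes had enough counts to be tested in every comparison.

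White muscle was taken above the lateral line from 3 exercised Gr mutants, 3 non-exercised Gr mutants, 3 exercised wild-type fish and 3 non-exercised wild-type fish, with 1 library per fish. Exercised fish swam at 0.4 m/s for 6 h a day, 5 days a week, over 4 weeks, and non-exercised fish were held for the same time at a flow of 0.1 m/s. Gr mutants were of the gr s357 line, in which a point mutation lies in the DNA-binding domain of the glucocorticoid receptor (nr3c1), and wild-type fish were supplied at an age of 3 months. Each exercise level had a swim tunnel of its own, shared by both genotypes, so exercise and tunnel cannot be told apart. The mutant line was obtained from another laboratory, no age is given for it, and the paper describes the mutants as bigger than wild-type fish. The receptor mutation, line, body size and age therefore cannot be told apart either.

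Myosin heavy chains form the thick filaments of the sarcomere, and each carries the motor domain that binds actin and splits ATP. The isoform that a fibre makes largely sets its speed of contraction. In fish, fast chains fill the bulk of the trunk muscle, whereas slow chains mark the thin superficial band of red fibres near the lateral line. Genes of the fast chains stand side by side: in RefSeq (assembly GRCz12tu) myhz2, myhc4, myha, myhz1.3, myhz1.2 and myhz1.1 follow each other with 0 protein-coding genes between neighbours. The same holds for smyhc1, smyhc2 and smyhc3, and for vmhc and its neighbour vmhcl, whereas myhb stands apart from the others. Since such neighbours are known as closely similar copies and the reads were 50 nucleotides long, the split of reads between members of a cluster is uncertain, and it is not stated whether strand was used in counting.

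Reads counted on genes numbered between 7688323 and 12315951 in exercised Gr mutants, 12126957 and 13894240 in non-exercised Gr mutants, 12038120 and 12936797 in exercised wild-type fish, and 11076993 and 13807501 in non-exercised wild-type fish. The targeted nr3c1 had 61.2, 46.5 and 66.7 CPM (counts scaled to a common library size) in exercised Gr mutants, 36.9, 45.8 and 48.2 CPM in non-exercised Gr mutants, 45.9, 59.8 and 50.6 CPM in wild-type fish with exercise, and 38.1, 40.6 and 27.4 CPM in those without. The genotypes overlapped, and a transcript level does not tell a point mutation. Of 11 heart markers, 6 (myl7, cmlc1, nppa, nppb, hand2 and tbx5a) had 3 counts or fewer in every library, cmlc1 was at 0 in all, and the 11 summed to between 1.26 and 13.6 CPM. Markers of fast muscle summed to 114911 CPM or more in every library. Slow fibre markers summed to between 779 and 5230 CPM, and oocyte markers to 200.4 CPM in 1 exercised Gr mutant and 19.2 CPM or less in the other libraries.

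Fast chains dominated the heavy chain reads. The 6 fast genes took 16.1%, 17.6% and 16.6% of all counted reads in exercised Gr mutants, and 7.42%, 12.7% and 11.2% in non-exercised Gr mutants. In wild-type fish they took 9.43%, 12.8% and 12.3% when exercised and 10.2%, 9.75% and 7.71% when not. All 3 exercised Gr mutants thus lay above the other 9 libraries. How many of all genes separate these 3 libraries from the other 9 was not counted, here or for the single genes below. The 2 slow genes took between 0.0298% and 0.277% of the reads of a library, and vmhc stood between 31.8 and 126 CPM. Gene lengths were not used here, so levels of different genes are shares of reads and give no order of transcript number.

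**Figure D1:**
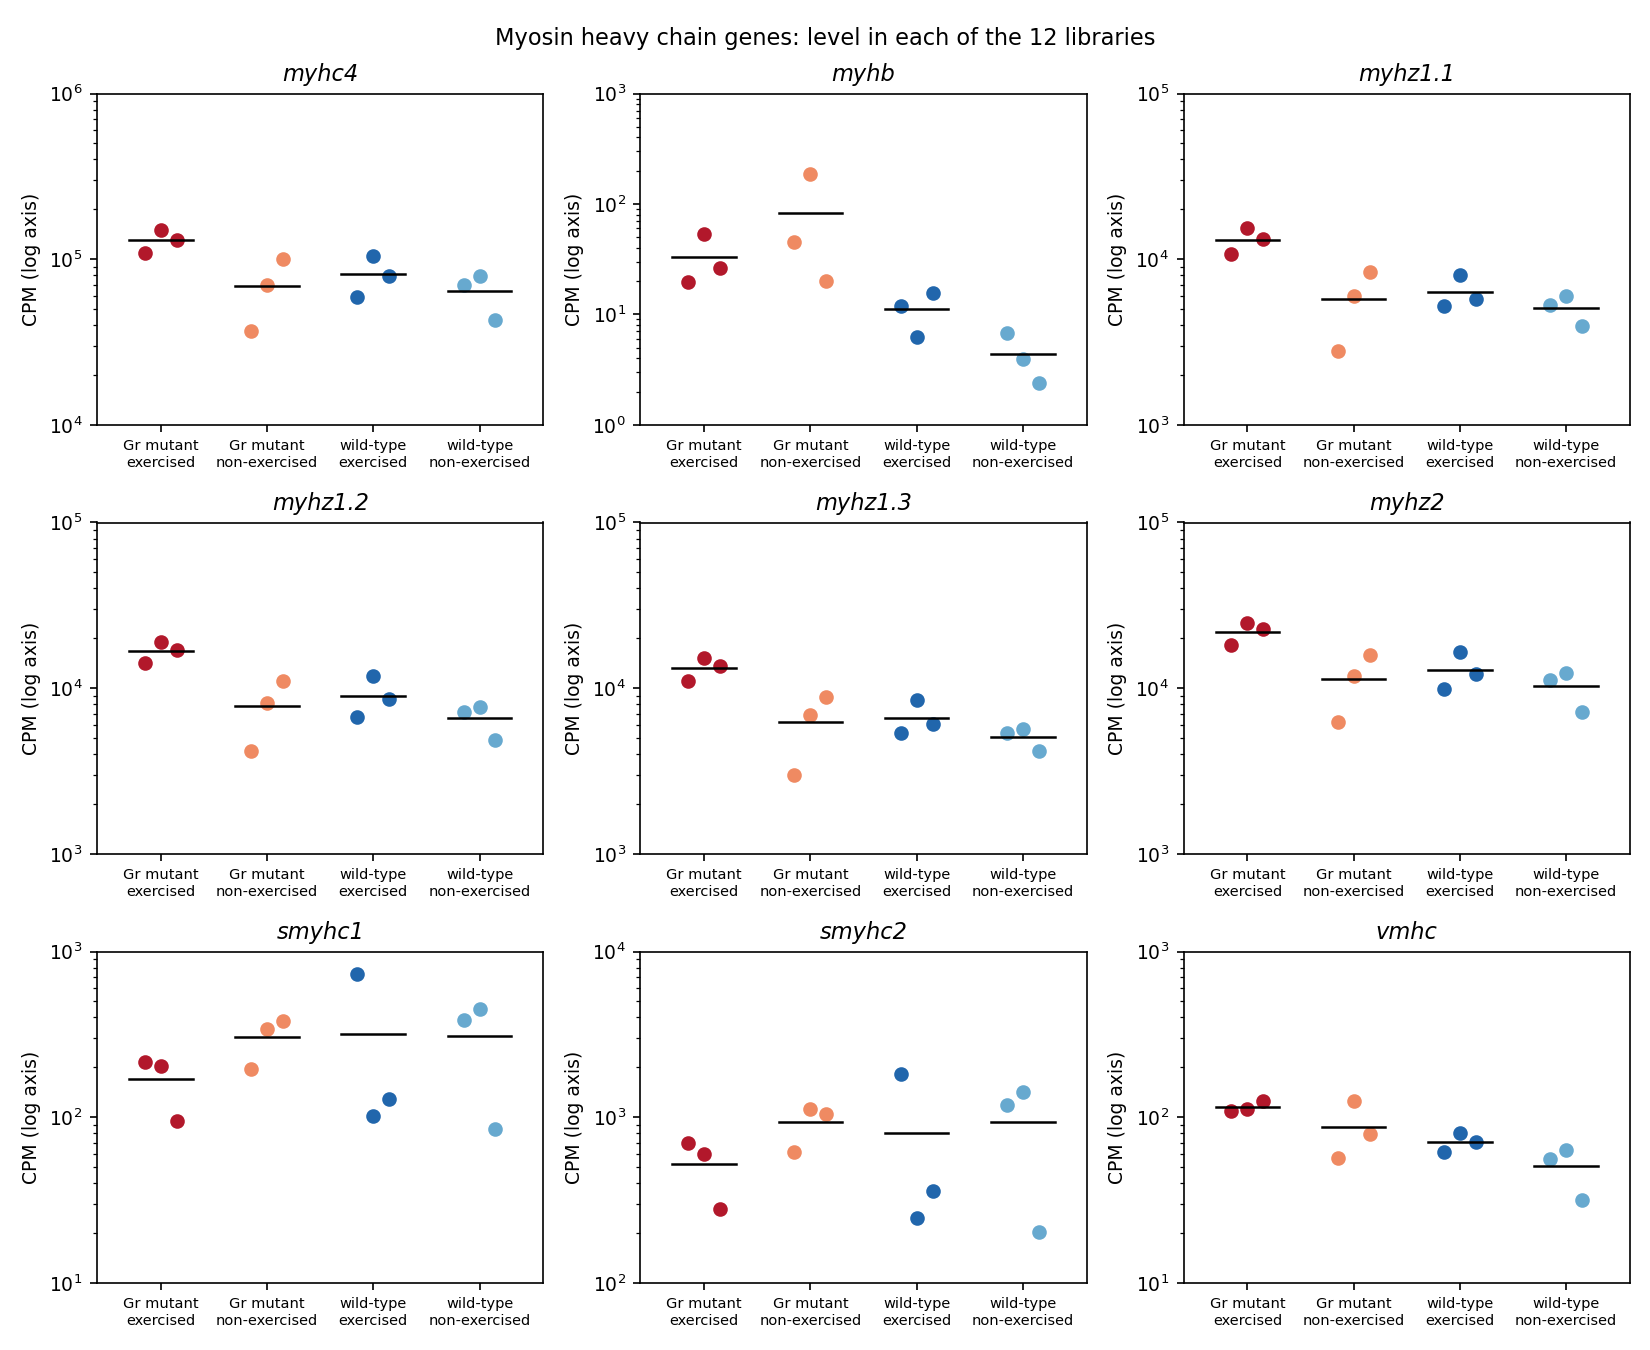
Level of each of the 9 heavy chain genes in CPM (log axis, one scale per gene) in the 4 groups of 3 fish. Points are libraries in the order of their replicate numbers and bars are group means. Exercised Gr mutants are highest for the 5 abundant fast genes, myhb is higher in both mutant groups, and both slow genes spread widely within the wild-type groups.

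The most counted gene was myhc4 (ENSDARG00000035438), a fast skeletal chain, with 66.4% to 71.4% of all fast chain reads in each library. Its level was 109025, 148990 and 131186 CPM in exercised Gr mutants, against 36882, 69409 and 100130 CPM in non-exercised Gr mutants. Exercised wild-type fish had 59228, 105006 and 79648 CPM, against 69508, 79333 and 43058 CPM in non-exercised wild-type fish. The libraries of exercised Gr mutants lay above the other 9, and the other groups overlapped.

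For myhz2 (ENSDARG00000012944), a fast chain of larval and adult trunk muscle, the level was 18121, 24571 and 22636 CPM in exercised Gr mutants and 6264, 11788 and 15858 CPM in non-exercised Gr mutants. It was 9868, 16443 and 12208 CPM in exercised wild-type fish, against 11241, 12361 and 7133 CPM in non-exercised wild-type fish. The libraries stood in nearly the same order as for myhc4. Over the 12 libraries the ratio of myhz2 to myhc4 counts varied by 1.13-fold. The level of myhc4 itself varied by 4.04-fold in CPM, which includes the scaling, and from 5.155% to 11.75% as a share of reads.

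The copies myhz1.1 (ENSDARG00000067990), myhz1.2 (ENSDARG00000067995) and myhz1.3 (ENSDARG00000067997), fast chains as well, kept nearly the same proportion. Their ratios to myhc4 varied by 1.43-fold, 1.33-fold and 1.44-fold. The split of reads between these copies is uncertain, as said above. Its part in these ratios, and in that of myhz2, was not tested. In exercised Gr mutants myhz1.1 had 10763, 15482 and 13152 CPM, against 2773, 5956 and 8405 CPM in non-exercised Gr mutants, 5223, 8062 and 5779 CPM in wild-type fish with exercise and 5257, 5987 and 3948 CPM in those without. The levels of myhz1.2 averaged 16641 ± 2405 CPM in exercised Gr mutants, 7774 ± 3443 CPM in non-exercised Gr mutants, 9025 ± 2565 CPM in wild-type fish with exercise and 6588 ± 1515 CPM in non-exercised wild-type fish (SD, n = 3 each). Those of myhz1.3 averaged 13273 ± 2111 CPM, 6243 ± 2994 CPM, 6618 ± 1617 CPM and 5076 ± 798 CPM in the same groups. For each of the 3 copies, every exercised Gr mutant was above every other library. As above, the share of all genes separated in this way was not counted. Outside the named set, myha, the gene between myhc4 and myhz1.3, varied against myhc4 by 1.85-fold, and wu:fd14a01, which the gene name table calls myhz1.1l and which was picked after its values were seen, by 4.17-fold.

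The remaining fast chain, myhb (ENSDARG00000001993), did not share this pattern. Its level was 19.6, 53.9 and 26.3 CPM in exercised Gr mutants (238, 327 and 190 counts) and 44.8, 186 and 19.9 CPM in non-exercised Gr mutants (760, 3215 and 215 counts). It was 11.9, 6.22 and 15.5 CPM in exercised wild-type fish, against 6.81, 3.91 and 2.37 CPM in non-exercised wild-type fish (80, 38 and 40 counts). In CPM each of the 6 mutants was thus above each of the 6 wild-type fish, and 1 non-exercised Gr mutant stood far above the rest. As a share of reads the genotypes overlapped, with 0.001547% in the third non-exercised Gr mutant and 0.001707% in the third exercised wild-type fish. The full separation thus depended on the scaling. The share of all genes that separate the genotypes in CPM was not counted. Against myhc4, myhb varied by 54.4-fold, and it held at most 0.0232% of the reads of a library.

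**Figure D2:**
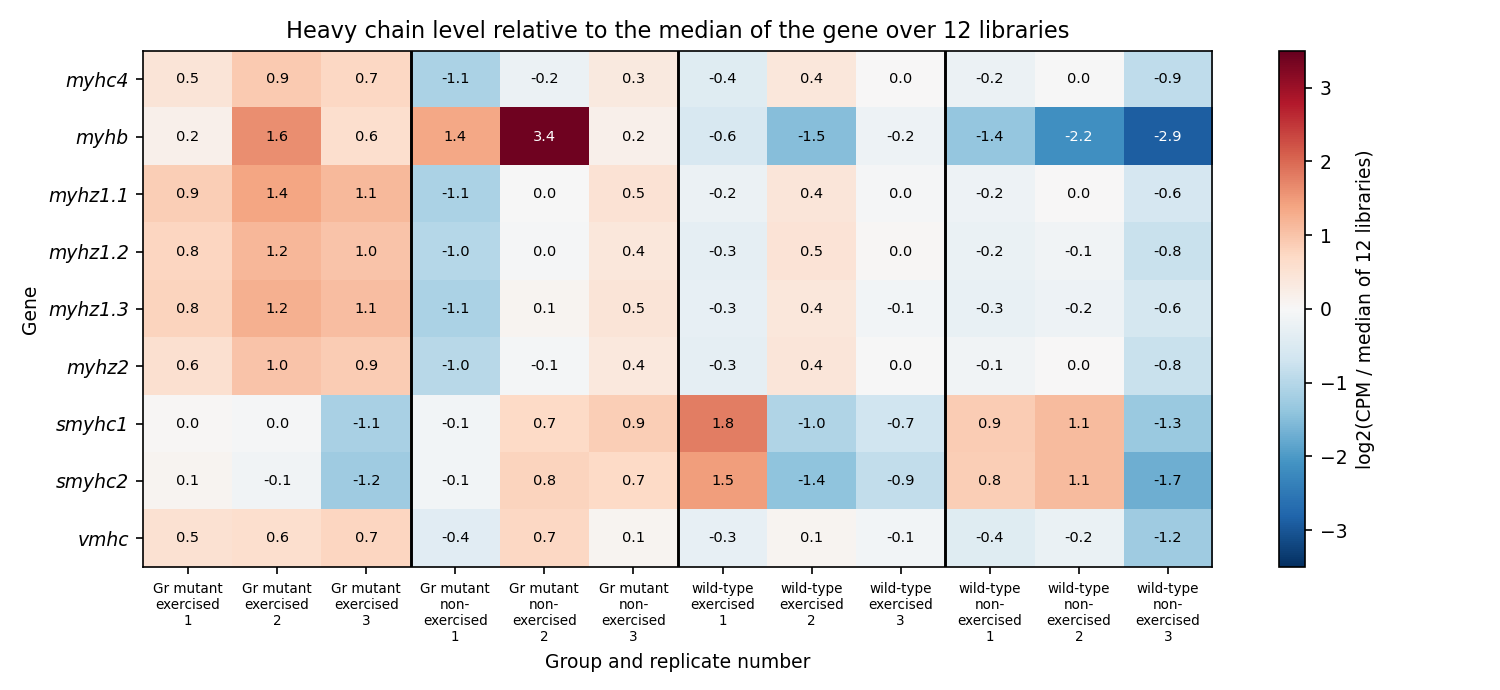
Level of the 9 heavy chain genes relative to the median of each gene over the 12 libraries, as a log2 ratio (colour and printed value). Columns are libraries by group. The 5 abundant fast genes move as a block, smyhc1 moves with smyhc2, and myhb departs from both, from 3.4 in the second non-exercised Gr mutant to -2.9 in the third non-exercised wild-type fish.

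The slow chains, expressed in slow-twitch fibres, were detected in every library. For smyhc1 (ENSDARG00000099959) the level was 215, 203 and 95.4 CPM in exercised Gr mutants and 196, 340 and 381 CPM in non-exercised Gr mutants. It was 727, 101 and 128 CPM in exercised wild-type fish, against 388, 451 and 84.2 CPM in non-exercised wild-type fish. The first exercised wild-type library stood apart at the top. The third non-exercised wild-type library was lowest in CPM, close to the third exercised Gr mutant and the second exercised wild-type fish. All 4 groups overlapped in part.

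The neighbouring gene smyhc2 (ENSDARG00000103969) had 696, 597 and 278 CPM in exercised Gr mutants and 615, 1121 and 1051 CPM in non-exercised Gr mutants, with 1810, 247 and 359 CPM in exercised wild-type fish, against 1179, 1411 and 202 CPM in non-exercised wild-type fish. The same libraries were high and low as for smyhc1, and the ratio of smyhc2 to smyhc1 counts stayed between 2.40 and 3.30. Here too the split of reads between neighbours is uncertain, and its part in the ratio was not tested.

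Across libraries the slow chains moved with the other genes of slow fibres. The summed level of smyhc1 and smyhc2 varied by 8.87-fold, but its ratio to 13 summed slow fibre markers (slow troponins, tropomyosin, light chains, myoglobin and others) varied by 1.53-fold, between 0.355 and 0.545. Among single markers with counts in every library, the ratios to smyhc2 varied least for tpm3 (slow tropomyosin) and myl13, by 1.82-fold and 1.95-fold. That of mb (myoglobin) varied most, by 25.1-fold. The others lay between 1.96-fold (tnnt2e) and 4.65-fold (tnni1d), with 3.45-fold for tnnt1 and 4.42-fold for mybpc1. In whole tissue, fewer slow fibres in a sample and less RNA per fibre cannot be told apart.

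The ventricular chain vmhc (ENSDARG00000079564), known as the main heavy chain of the heart ventricle, had 109, 112 and 126 CPM in exercised Gr mutants and 56.8, 124 and 79.5 CPM in non-exercised Gr mutants. It had 61.2, 80.2 and 70.9 CPM in exercised wild-type fish, against 55.9, 63.4 and 31.8 CPM in non-exercised wild-type fish. The exercised Gr mutants lay above both wild-type groups, and the non-exercised Gr mutants overlapped all others. The count ratio of vmhc to its neighbour vmhcl was between 0.962 and 1.13 in 10 libraries, 1.54 in the second non-exercised Gr mutant and 2.13 in the first. In the first, vmhc was at 56.8 CPM and vmhcl at 26.6 CPM, the lowest CPM of vmhcl in any library. Of the heart markers above 3 counts, tnni1b was highest in the same 2 libraries. It had 193 counts in the second and 170 in the first, against 4 to 75 in the other 10. So was tnnt2a, with 29 and 15 counts against 1 to 9. Not so myh6, which had 6 counts in the second, 0 in the first and 5 in the first exercised wild-type fish. The others above 3 counts are not given here. Summed heart markers were between 3.32 and 6.10 CPM in exercised Gr mutants, 4.34 and 13.6 CPM in non-exercised Gr mutants, 1.26 and 6.87 CPM in wild-type fish with exercise and 3.86 and 7.40 CPM in those without, and their part in the level of vmhc was not tested.

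The first comparison asked what exercise did to the heavy chains when the Gr is mutant. In exercised against non-exercised Gr mutants, edgeR's quasi-likelihood test put 0 of the 9 genes past an adjusted p of 0.05 (Benjamini-Hochberg, over all genes tested), where 0% of 14584 genes passed. The 5 abundant fast genes were higher in every exercised mutant than in any non-exercised one, and across all genes tested 9.11% were separated in that direction. The fitted log2 fold changes were 1.21 ± 0.488 for myhz1.1 (SE, edgeR adjusted p = 0.461), 1.09 ± 0.485 for myhz1.3 (0.477), 0.95 ± 0.474 for myhz2 (0.515) and 0.92 ± 0.564 for myhc4 (0.584), and that of myhz1.2 equalled a 2.15-fold difference, with a standard error of 0.470 on the log2 scale (0.466). At an unadjusted p under 0.05, 2 genes passed, myhz1.1 and myhz1.2, beside 10.5% of all genes, and DESeq2 called 0 of 9, beside 0.917%. The median over the 9 genes was 0.92, beside -0.023 over all genes tested. Since the 5 abundant fast genes moved as a block across libraries, they are not independent in this median or in these counts.

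Slow chains and myhb had fitted values of the opposite sign in the same fish. The log2 fold change was -0.84 ± 0.397 for smyhc1 (edgeR adjusted p = 0.501) and -0.83 ± 0.420 for smyhc2 (adjusted p = 0.517), with overlapping groups. Of the slow fibre markers, 12 of 12 tested had values below 0 with a median of -0.68, whereas 48.3% of all genes had values above 0. None of these markers passed the threshold with edgeR and 3 had an unadjusted p under 0.05, beside 5.66% of all genes in that direction. Slow fibre genes moved together across libraries, so these markers are not independent of each other or of the slow chains. For myhb the value was -1.34 ± 0.761 (adjusted p = 0.552), and without the second non-exercised Gr mutant it was 0.028. The value of vmhc was 0.41 ± 0.333 (adjusted p = 0.689).

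**Figure D3:**
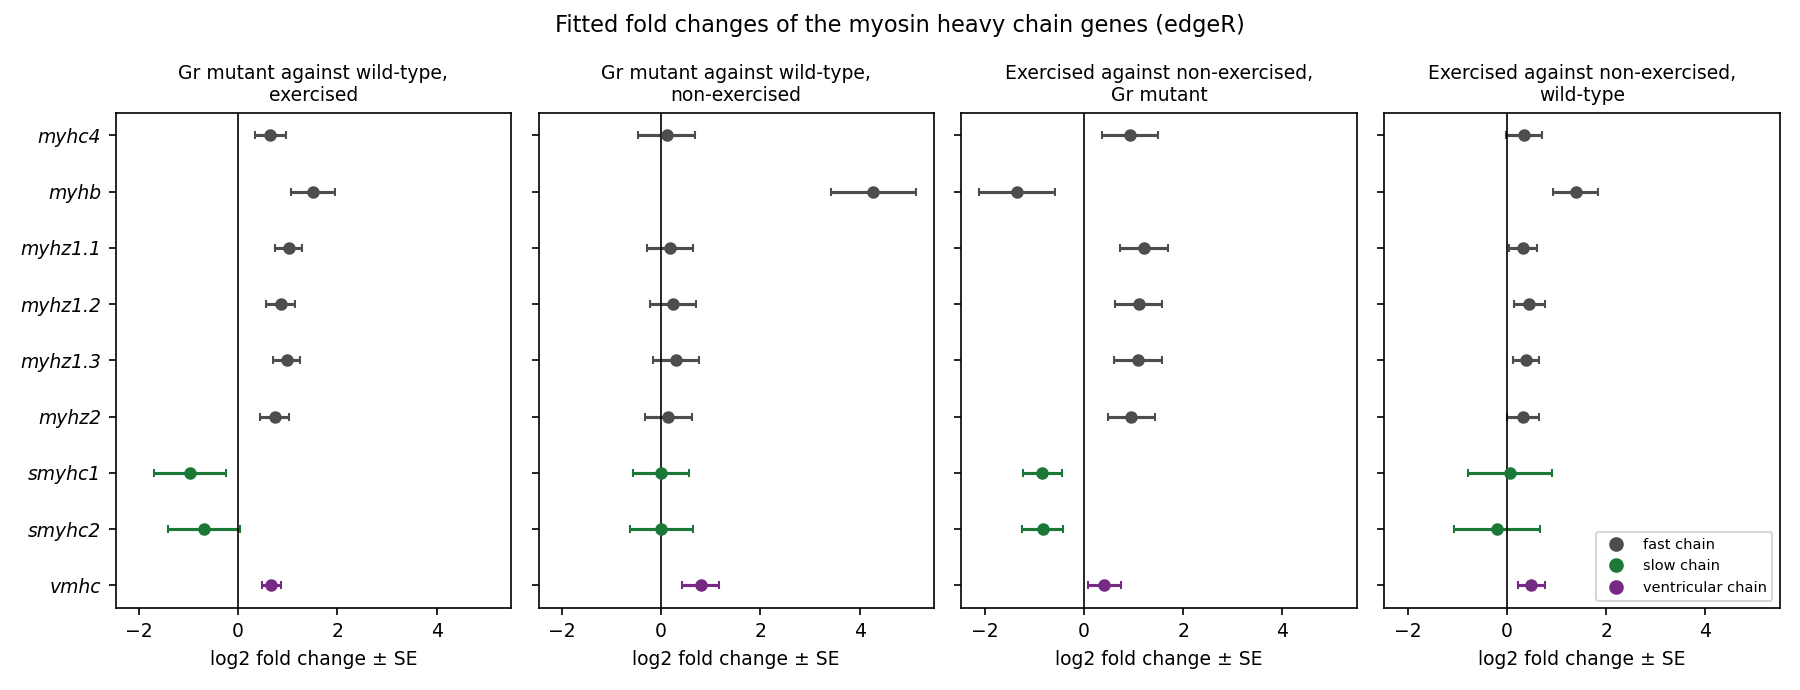
Fitted log2 fold change of each heavy chain gene with its standard error (horizontal bars) in the 4 comparisons of 3 against 3 libraries (edgeR). Values right of 0 are higher in the group named first. The 5 abundant fast genes lie right of 0 and slow genes left of it in exercised Gr mutants against exercised wild-type fish and against non-exercised Gr mutants, and myhb lies farthest right in non-exercised Gr mutants against wild-type fish, at 4.28.

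Slow and fast chains were then set against each other. Slow chain reads made up 0.556%, 0.357% and 0.189% of the fast and slow chain reads in exercised Gr mutants, against 1.5%, 1.41% and 0.983% in non-exercised Gr mutants. The groups did not overlap, and the log2 ratio of slow to fast counts averaged -8.22 ± 0.785 in exercised and -6.27 ± 0.334 in non-exercised Gr mutants (SD, n = 3 each), a difference of -1.95. Leaving out each library in turn kept this difference between -2.31 and -1.53. It was read as a description, since fast and slow members were chosen with earlier results known, and 3 against 3 fish cannot give an exact two-sided permutation p below 0.1. The summed slow fibre markers were at 2456, 1671 and 815 CPM in exercised Gr mutants and at 2207, 2684 and 3121 CPM in non-exercised Gr mutants, which overlapped, and their part in the ratio was not tested.

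**Figure D4:**
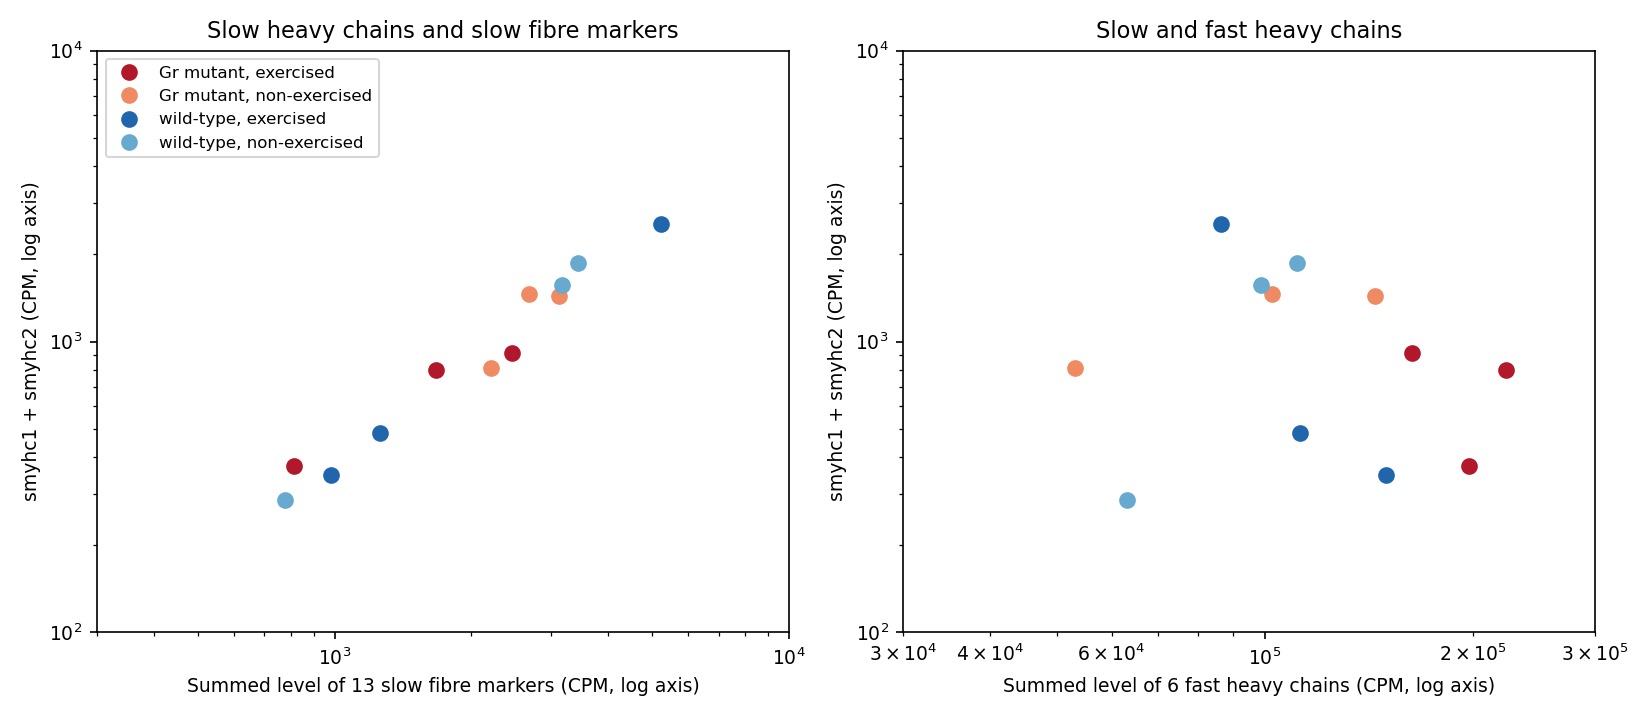
Summed level of smyhc1 and smyhc2 in each of the 12 libraries (CPM, log axes) against the summed level of 13 slow fibre markers (left) and of the 6 fast heavy chains (right). Points are libraries, coloured by group. Slow chains rise with slow fibre markers along one line, from 286 to 2538 CPM, and show no such line with fast chains, where exercised Gr mutants lie at the right.

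In wild-type fish, exercise was compared in the same way. Of the 9 genes, 0 passed with edgeR, where 0.37% of 14597 genes passed, and 0 with DESeq2, where 3.14% passed. At an unadjusted p under 0.05, 1 gene passed, myhb, beside 13.9% of all genes. The log2 fold changes of the 5 abundant fast genes lay between 0.33 and 0.46, with overlapping groups throughout. For myhb the value was 1.38 ± 0.451 (edgeR adjusted p = 0.231), with 2 of 3 exercised fish above all non-exercised ones. The slow chains had 0.063 ± 0.840 for smyhc1 (adjusted p = 0.981) and -0.20 ± 0.871 for smyhc2 (adjusted p = 0.941). Without the first exercised fish these became -1.42 and -1.61, so that 1 library set their size. The value of vmhc was 0.50 ± 0.273 (adjusted p = 0.459). Outside the 9 genes, wu:fd14a01 was at 1.21 ± 0.308 (edgeR adjusted p = 0.152, DESeq2 adjusted p = 0.00775). Its exercised fish all lay above the non-exercised ones, as for 10.4% of all genes tested. The other fast chain outside the set, myha, was at 0.21 ± 0.317 (edgeR adjusted p = 0.807), with overlapping groups.

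The share of slow among fast and slow reads was 2.85%, 0.232% and 0.431% in exercised wild-type fish and 1.57%, 1.65% and 0.451% in non-exercised ones. The difference of the log2 ratios was -0.68, and it ran from -1.75 to 0.084 when single libraries were left out. In the same comparison, 5 of 5 erythrocyte markers had higher values in exercised than in non-exercised fish, with a median log2 fold change of 2.00. At an unadjusted p under 0.05 with edgeR 3 passed, beside 7.32% of all genes in that direction. None passed the adjusted threshold, and no marker separated the groups. Their summed level was, from lowest to highest, 240, 576 and 3071 CPM in exercised wild-type fish. It was between 186 and 426 CPM in non-exercised ones. Their part in the heavy chain values was not tested.

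The next comparison set the genotypes against each other under exercise. In exercised Gr mutants against exercised wild-type fish, 7 of the 9 genes did not overlap between the groups, all 7 higher in the mutants. Of all genes tested, 12.5% were separated in that direction and 25.3% in either direction. With edgeR 0 of 9 passed the adjusted threshold, which 3.02% of 14106 genes passed. At an unadjusted p under 0.05 with edgeR, 6 of 9 passed, all higher, beside 7.88% of all genes in that direction and 19.5% in either direction. DESeq2 called 5 of 9, all higher. Of the 11904 genes for which it gave an adjusted p, it called 2.49% higher and 7.93% in either direction.

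Values were largest for myhb, with a log2 fold change of 1.51 ± 0.449 (edgeR adjusted p = 0.107, DESeq2 adjusted p = 0.0105), and for the fast copies. They were 1.02 ± 0.276 for myhz1.1 (0.0850 and 0.00523), 0.98 ± 0.274 for myhz1.3 (0.0917 and 0.00756) and 0.86 ± 0.285 for myhz1.2 (0.142 and 0.0330), giving edgeR's and then DESeq2's adjusted p. For vmhc the value was 0.67 ± 0.194 (0.0994 and 0.0488). Neither tool called myhz2 at 0.73 ± 0.283 (edgeR adjusted p = 0.197) or myhc4 at 0.65 ± 0.314 (edgeR adjusted p = 0.308). The median over the 9 genes was 0.73, beside -0.0078 over all genes. The 5 abundant fast genes moved as a block across libraries, so they are not independent in this median or in the counts of genes above.

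In the same libraries smyhc1 had a log2 fold change of -0.96 ± 0.726 (edgeR adjusted p = 0.517) and smyhc2 of -0.69 ± 0.719 (adjusted p = 0.658). Without the first exercised wild-type fish both turned positive, at 0.56 and 0.77. The ratio of slow to fast counts differed by -0.99 on the log2 scale with overlapping groups, and by 0.080 without that library. Of the erythrocyte markers, 5 of 5 had values below 0 in this comparison, with a median of -1.83. At an unadjusted p under 0.05 with edgeR 4 passed, beside 11.6% of all genes in that direction. None passed the adjusted threshold, and no marker separated the groups. From lowest to highest, the markers summed to 354, 356 and 390 CPM in exercised Gr mutants and to 240, 576 and 3071 CPM in exercised wild-type fish. Thus 1 wild-type library lay far above all others and 1 lay below the mutants. The part of these markers in the heavy chain values was not tested.

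Genes that work with the heavy chains were counted from lists written with earlier results known. In exercised Gr mutants against exercised wild-type fish, 0 of 20 light chain and thick filament genes passed with edgeR, 5 of them were higher at an unadjusted p under 0.05 (7.88% of all genes were), and their median was 0.17. Counts of genes past the adjusted threshold in the next lists stand beside 3.02% of all genes. Of 17 genes of myosin folding and turnover, 2 passed: smyd2b, a lysine methyltransferase of muscle, rose by 1.02 ± 0.211 (edgeR adjusted p = 0.0429), and trim63b, a ubiquitin ligase known in mammals to target myosin, fell by 1.47 ± 0.312 (adjusted p = 0.0466) on the log2 scale. Of 25 regulators of fibre type 2 passed. The myogenic factor myog rose by 2.98 ± 0.413 (adjusted p = 0.0155), at low counts of 59, 55 and 87 in exercised Gr mutants and 10, 14 and 15 in exercised wild-type fish. The coactivator ppargc1a, known for promoting slow and oxidative fibres, fell by 3.03 ± 0.537 (adjusted p = 0.0281), with 33, 10 and 7 counts in exercised Gr mutants and 351, 123 and 98 in exercised wild-type fish. Among fast muscle markers 4 of 14 passed, in both directions: actn3a at 1.19 and pvalb1 at 2.54 were higher, and atp2a1 at -1.98 and tnni2a.4 at -1.83 were lower (chosen after their values were seen). When each of the 6 libraries was left out in turn, edgeR still called smyd2b in 0 of 6 fits, trim63b, actn3a and atp2a1 in 1 each, ppargc1a and tnni2a.4 in 2 each, and myog and pvalb1 in 4 each. With all 12 libraries in 1 fit, myog (adjusted p = 0.0224) and atp2a1 (adjusted p = 0.0251) passed and the other 6 did not, with edgeR adjusted p between 0.0694 and 0.159, whereas DESeq2 called all 8. The neighbouring fast chain myha had 1.24 ± 0.293 (edgeR adjusted p = 0.0604, DESeq2 adjusted p = 0.000414). It was 1 of 4 other muscle heavy chains tested, of which 2 had values above 0 and 2 below, with a median of 0.31. Outside that list, wu:fd14a01 was at -0.14 ± 0.336 (edgeR adjusted p = 0.857), with overlapping groups. Between non-exercised genotypes, the 8 genes named above as past the threshold had values of the same sign, none of them past it with edgeR. There ppargc1a was at -3.49 ± 0.873 (edgeR adjusted p = 0.144, DESeq2 adjusted p = 0.000324). The value of atp2a1 was -0.83 ± 0.282 (edgeR adjusted p = 0.203, DESeq2 adjusted p = 0.0105), and DESeq2 did not call the others.

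Without exercise, where 22% of all genes tested separated the genotypes in either direction, 1 of the 9 heavy chain genes did so, myhb. In non-exercised Gr mutants against non-exercised wild-type fish its log2 fold change was 4.28 ± 0.859, a 19.4-fold difference, and the groups did not overlap, with the mutants higher, as for 10.7% of all genes tested. With edgeR the adjusted p was 0.0974, so 0 of 9 genes passed where 0.233% of 15011 genes did. At an unadjusted p under 0.05 this 1 gene passed with edgeR, beside 17.2% of all genes. DESeq2 called myhb (adjusted p = 4.4e-07) and no other heavy chain, beside 5.49% of all genes. With edgeR it also passed with no filter on low counts (adjusted p = 0.0311, beside 0.1% of all genes called higher) and with all 12 libraries in 1 fit (adjusted p = 0.0302, beside 0.417%). Without the second non-exercised Gr mutant, the highest library, the value was 2.93 (edgeR adjusted p = 0.195), and without the third it was 4.72 (adjusted p = 0.0237).

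The other fast chains had values between 0.11 and 0.31, smyhc1 -0.00071 and smyhc2 0.0073, each with a standard error of 0.465 or more. The value of vmhc was 0.80 ± 0.376 (edgeR adjusted p = 0.323), with overlapping groups. The ratio of slow to fast counts differed by 0.28 on the log2 scale, with a mean of -6.27 ± 0.334 in non-exercised Gr mutants and -6.55 ± 1.07 in non-exercised wild-type fish (SD, n = 3 each), and the groups overlapped.

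Whether the response to exercise differed between genotypes was tested as an interaction over all 12 libraries. Of the 9 genes 0 passed with edgeR, where 0% of 16056 genes did, and 0 with DESeq2, where 0.204% did. At an unadjusted p under 0.05, 1 passed, myhb, beside 8.39% of all genes. Its interaction was -2.71 ± 1.01 on the log2 scale (edgeR adjusted p = 0.529), from a difference of -1.34 with exercise in Gr mutants and of 1.38 in wild-type fish, and -1.36 without the second non-exercised Gr mutant. The 5 abundant fast genes had interactions between 0.57 and 0.87, with standard errors between 0.536 and 0.599 and edgeR adjusted p between 0.706 and 0.848. The slow chains had -0.89 ± 1.03 for smyhc1 and -0.62 ± 1.07 for smyhc2, and vmhc had -0.083 ± 0.440.

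Genes with the most similar profiles were looked up among 5434 genes over the 12 libraries, as a description in which the points share depth and library. Closest to myhz2 were MYOZ2 (3 of 3) (r = 0.973, rho = 0.951), myha (r = 0.969, rho = 0.944) and actc1b (r = 0.960, rho = 0.958), a gene of sarcomeric actin. Closest to smyhc1 were the unnamed gene FO904953.1 (r = 0.992, rho = 0.979), the light chain gene myl13 (r = 0.971, rho = 0.958) and tnnc1b, a troponin C gene (r = 0.970, rho = 0.986). Closest to myhb were ap2b1 (r = 0.942, rho = 0.937), PALD1 (2 of 2) (r = 0.939, rho = 0.937) and esyt1b (r = 0.931, rho = 0.916), none of them a gene of the thick filament. Without the 2 libraries farthest from the median, r was between 0.858 and 0.986 for these 9 genes.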

How the data were processed

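Deposited values were counts of reads per gene, neither normalized nor filtered, which the authors made from single-end reads of 50 nucleotides with TopHat2 2.0.5 on GRCz10, SAMtools 0.1.18 and HTSeq 0.5.3p9, per the labels and the paper's methods. The 4 deposited tables also hold the authors' normalized means (signal), fold changes and p-values from DESeq, none of which was used. All 12 library columns stand in 2 tables with the same counts, and 0 sample columns were left unused.

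Each comparison was fitted on 6 libraries with edgeR 4.0.16 (R 4.3.3) by its two-sided quasi-likelihood test, with TMM scaling, for genes whose count reached 10 in 3 libraries or more, with Benjamini-Hochberg adjustment over all genes and a threshold of 0.05. The interaction used all 12 libraries. CPM was scaled with TMM factors over 12 libraries, and log2 CPM for profiles had a prior count of 2. The test was tried on simulated data. Alternatives were DESeq2 1.42.0, DESeq's size factors, no filter, the replicate number as a block, 12 libraries in 1 fit and leaving out each library. Every heavy chain gene was named, with genes of the lists past the threshold (at most 5 per list) and the 3 closest profiles of myhb, myhz2 and smyhc1. Members and lists were chosen with earlier results of these data known. Sequences were not used here. No library was a copy of another of its own group, the smallest chi-square per gene between replicates being 20.1. Libraries of different groups were not compared in this way. SDs given are those between fish. The standard error of a log2 fold change was its absolute value divided by the square root of the F statistic of edgeR's test. That statistic uses a dispersion that edgeR moderates over all genes.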

Additional observations from a re-analysis of the deposited data

How the results depend on the processing

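Of 45 fold changes of heavy chains, 30 kept their sign under every alternative run and 15 did not, the largest of these being that of myhb with exercise in Gr mutants. Numbers of heavy chains past the threshold in Gr mutants against wild-type fish changed with the tool. Among exercised fish 0 became 5 with DESeq2, and among non-exercised fish 0 became 1 (myhb) with DESeq2, with no filter on low counts and with 12 libraries in 1 fit (adjusted p = 0.0302 with edgeR), and ran from 0 to 1 when libraries were left out. In the other comparisons the number stayed 0 under each alternative. Over all genes, the number past the threshold with exercise in wild-type fish (54) was 142 with no filter and 395 with DESeq2, and ran from 7 to 32 without single libraries. With exercise in Gr mutants (0) it was 4, 105 and 6 with no filter, DESeq2 and 12 libraries, and 0 to 58 without single libraries (58 without the third non-exercised Gr mutant). Between genotypes it was 944 with DESeq2, 267 with 12 libraries and 6 (without the second exercised Gr mutant) to 508 without single libraries among exercised fish (426), and 126 with no filter, 726 with DESeq2, 184 with 12 libraries and 0 to 544 (without the third non-exercised Gr mutant) without single libraries among non-exercised fish (35). The interaction had 32 with DESeq2 and 0 otherwise. The cause of these shifts was not tested.

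Replicate numbers did not pair the libraries: same-numbered libraries deviated from their group means with correlations between -0.12 and 0.165. With the replicate number as a block, 4 genes passed with exercise in wild-type fish, 223 between exercised genotypes and 0 between non-exercised ones. The block put 2 heavy chains past the threshold between exercised genotypes, myhz1.1 (adjusted p = 0.0414) and myhz1.3 (adjusted p = 0.0448), beside 0.383% of all genes called higher, and changed no other call of a heavy chain. It ended the calls of smyd2b (adjusted p = 0.0728) and trim63b (adjusted p = 0.0995) there. Under the block smyhc1 was at -0.14 with exercise in wild-type fish and at 0.21 between non-exercised genotypes.

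Signs that turned were those of values near 0 or set by 1 library. Between non-exercised genotypes, smyhc2 was at -0.0072 with DESeq's size factors and with DESeq2 and at -0.0012 with 12 libraries. Leaving out single libraries there gave -0.28 to 0.42 for myhc4, -0.23 to 0.52 for myhz1.1, -0.11 to 0.55 for myhz1.2, -0.056 to 0.65 for myhz1.3, -0.19 to 0.45 for myhz2, -0.44 to 0.38 for smyhc1 and -0.46 to 0.43 for smyhc2. Between exercised genotypes it gave -1.37 to 0.56 for smyhc1 and -1.10 to 0.77 for smyhc2. With exercise it gave -1.42 to 0.52 for smyhc1 and -1.61 to 0.27 for smyhc2 in wild-type fish and -1.89 to 0.028 for myhb in Gr mutants. For the interaction it gave -1.31 to 0.59 for smyhc1, -1.05 to 0.79 for smyhc2 and -0.33 to 0.26 for vmhc. The ratio of slow to fast counts moved by less than the spread between fish with vmhc among the slow chains, without myhb, with myhz2 alone and, as an alternative chosen after seeing the data, with myha and wu:fd14a01 among the fast chains. Counts of myhb were lowest in non-exercised wild-type fish, at 38 to 80 per library.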
